A study of Mus musculus with 9 samples.

Results

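Of the 22 tRNAs of the mouse mitochondrial genome, 5 lie on the stretch that runs from the cytochrome oxidase genes into the first NADH dehydrogenase genes of that segment: mt_tRNA-Ser-TGA, mt_tRNA-Asp-GTC, mt_tRNA-Lys-TTT, mt_tRNA-Gly-TCC and mt_tRNA-Arg-TCG. They were chosen by name and position, not by a measured value. Each was followed through 4 fragment classes. They were reads at the 5′ end, reads at the 3′ end without CCA, reads classed as ending in CCA (CCA ends), and the remainder. The remainder is every read of the tRNA that falls in none of those ends. The 4 classes of the 5 tRNAs gave 20 of the 994 features with reads in the 9 libraries, and all 20 passed the filter on low counts.

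Small RNA of atrial appendages from C57BL/6 mice was profiled by PANDORA-seq, a small RNA sequencing method in which the enzymes AlkB and T4PNK remove base methylations and end modifications that block library preparation, so that modified tRNA fragments can be read. The 3 groups, of 3 libraries each, were young mice of 5 months without curcumin, old mice of 18 months without curcumin, and mice of 18 months given curcumin, a plant polyphenol, at 100 mg/kg each day in non-fat skim milk from 12 months of age. All groups share the strain and tissue, and no transgene or deletion is named; whether the untreated mice received milk alone is not given in the sources used here. Inserts of 15 to 45 nucleotides were read, so a whole tRNA could not be sequenced from end to end.

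Mitochondrial DNA is transcribed into long RNAs in which tRNAs stand between the messenger and ribosomal RNAs. Release of a tRNA frees its neighbours: RNase P cuts at the 5′ end of the tRNA and RNase Z (ELAC2 in mammals) at its 3′ end. The CCA tail, to which the amino acid is joined, is not encoded in the gene and is added afterwards by the nucleotidyltransferase TRNT1, so an added CCA marks a processed 3′ end, whereas a 3′ end without CCA can be a precursor, a trimmed end or a read that stopped short.

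The gene sequences are shown because the 5 tRNAs are told apart, and their fragment ends defined, by these letters. They come from the GENCODE M21 transcripts on mm10, are written 5′ to 3′ as DNA, and carry the anticodon and the added CCA in capitals.
tRNA-Ser-TGA: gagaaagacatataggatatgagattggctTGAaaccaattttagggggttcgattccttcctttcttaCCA
tRNA-Asp-GTC: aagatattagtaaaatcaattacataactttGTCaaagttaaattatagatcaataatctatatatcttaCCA
tRNA-Lys-TTT: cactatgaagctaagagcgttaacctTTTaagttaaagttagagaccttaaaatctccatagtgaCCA
tRNA-Gly-TCC: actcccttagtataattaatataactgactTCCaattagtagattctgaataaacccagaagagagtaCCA
tRNA-Arg-TCG: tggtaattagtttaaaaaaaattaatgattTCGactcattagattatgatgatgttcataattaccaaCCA

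All 5 genes lie on chromosome M of mm10 and are annotated as exons of tRNA genes, with no intron. The gene of tRNA-Ser-TGA, mt-Ts1, is 69 nucleotides long at chrM:6870-6938 on the minus strand, and overlaps the end of mt-Co1, which codes for cytochrome oxidase subunit 1 on the plus strand, by 3 nucleotides. The other 4 genes are on the plus strand. mt-Td, for tRNA-Asp-GTC, is at chrM:6942-7011, 1 nucleotide before mt-Co2. mt-Tk, for tRNA-Lys-TTT, is at chrM:7700-7764, with 3 nucleotides to mt-Co2 on its left and 1 to the ATP synthase gene mt-Atp8 on its right. mt-Tg, for tRNA-Gly-TCC, is at chrM:9391-9458 and touches mt-Co3 and mt-Nd3 with 0 nucleotides between them. mt-Tr, for tRNA-Arg-TCG, is at chrM:9808-9875, with 1 nucleotide to mt-Nd3 and 1 to mt-Nd4l. GC content ran from 17.1% in tRNA-Asp-GTC to 37.7% in tRNA-Ser-TGA. The longest 3′ end shared with another mitochondrial tRNA was 8 nucleotides, between tRNA-Ser-TGA and the other serine tRNA, mt-Ts2, which is shorter than the smallest insert. Copies of mitochondrial DNA in the nuclear genome and the strand of the counting are not resolved by the deposited values.

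Clean reads ranged from 12899427 to 19707803 a library, of which mitochondrial tRNAs took 6.28% to 10.0% and the 5 tRNAs 1.11% to 1.87%. The 5 tRNAs together held between 169021 and 368449 reads a library. The tissue label was checked against marker miRNAs: all 7 cardiac muscle markers had reads, summing to 6201 to 17075 CPM (the count scaled to library size) in young, 5179 to 13719 in old and 11903 to 17618 in curcumin libraries, whereas epithelial, neuronal and liver markers summed to at most 4.97 CPM each. The red blood cell markers ranged from 7.47 to 244 CPM, the leukocyte markers, 2 of 3 with reads, from 23.4 to 85.7, the smooth muscle markers from 239 to 750 and the endothelial marker from 4178 to 10451. Fewer cells of a type and less RNA per cell cannot be told apart in such tissue, and the part of tissue make-up in the values below was not tested.

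Across groups, the libraries with replicate number 1 stood apart in how their tRNA reads ended. The 3′ ends without CCA of tRNA-Asp-GTC, tRNA-Lys-TTT, tRNA-Gly-TCC and tRNA-Arg-TCG, 4 of the 5, were higher in each of these 3 libraries than in any of the other 6, as were those of 12 of the 17 other mitochondrial tRNAs. Over all 520 tested features, 9.62% stood above and 12.3% below the other 6 in this way. For tRNA-Gly-TCC this class was at 182 to 228 CPM in the libraries numbered 1 and at 18.5 to 86.3 CPM in the rest. What the number stands for is not given in the labels. The same 3 libraries had 72.2% to 73.7% of their clean reads matched to the genome, and the other 6 had 65.0% to 68.3%, so results are given with and without these 3 libraries.

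Levels of the 5 tRNAs differed among themselves far more than between groups. Levels are compared per base of gene length, as the sum of the 4 classes in CPM. tRNA-Arg-TCG and tRNA-Ser-TGA were the most abundant, with means over the 9 libraries of 80.6 and 79.6 CPM per base; tRNA-Arg-TCG was the higher of the pair in 4 of 9 libraries, so their order is not resolved. tRNA-Gly-TCC followed at 52.3 CPM per base, and tRNA-Ser-TGA exceeded it in 9 of 9 libraries. It was 4.00-fold above tRNA-Lys-TTT, which had 13.1 CPM per base, and tRNA-Asp-GTC was lowest at 9.75. These last steps held in 9 of 9 libraries each. The 5 genes lie within 1 short stretch of the same molecule. The genes of tRNA-Gly-TCC and tRNA-Lys-TTT are on the same strand, and their levels differed in every library. These levels count reads of fragments, not whole tRNAs, and the fragment make-up of these tRNAs differed too, as given below. What the difference in level comes from was not tested.

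**Figure D1:**
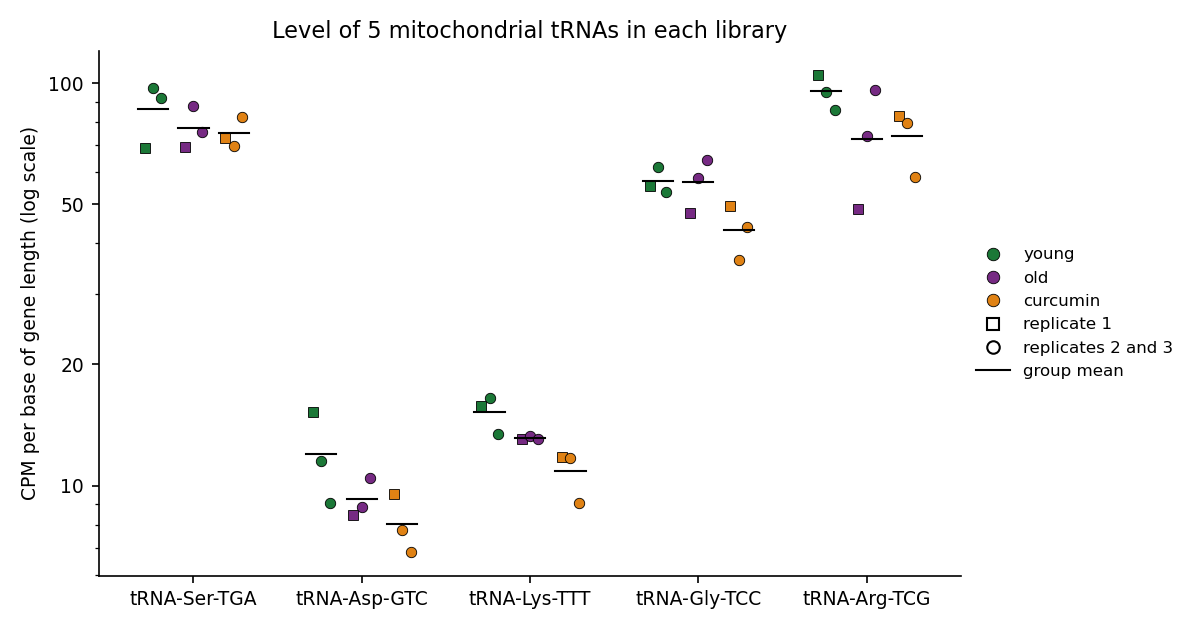
Level of each tRNA in CPM per base of gene length (log axis) in the 9 libraries, coloured by group, with squares for replicate 1, circles for replicates 2 and 3, and a line at the group mean. tRNA-Arg-TCG, tRNA-Ser-TGA and tRNA-Gly-TCC lie above tRNA-Lys-TTT and tRNA-Asp-GTC in each library. On this scale tRNA-Lys-TTT in curcumin libraries lies below its old and young levels, but with reads divided by clean-read totals its groups overlapped.

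By whole tRNA, tRNA-Lys-TTT had 1026, 1072 and 875 CPM in the young libraries, 850, 865 and 851 in the old and 767, 761 and 589 in the curcumin libraries. On this scale its 3 groups did not overlap, but with reads divided by clean-read totals instead they did. tRNA-Asp-GTC, which reads the aspartate codons, had 1068, 807 and 636 CPM in young, 593, 621 and 730 in old and 666, 544 and 480 in curcumin libraries, and its groups overlapped. tRNA-Gly-TCC, for glycine, had 3773, 4212 and 3638 CPM in young, 3234, 3961 and 4384 in old and 3363, 2470 and 2989 in curcumin libraries. Here the libraries numbered 1 overlapped across the groups, while replicates 2 and 3 of the curcumin group were the lowest of the 9. tRNA-Ser-TGA, which reads the UCN serine codons, had 4767, 6705 and 6352 CPM in young, 4780, 6047 and 5225 in old and 5029, 4815 and 5681 in curcumin libraries. tRNA-Arg-TCG, for arginine, had 7138, 6471 and 5845 CPM in young, 3307, 5014 and 6519 in old and 5628, 5426 and 3981 in curcumin libraries. Old replicate 1 was the lowest value of tRNA-Arg-TCG.

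None of the 5 whole tRNAs passed in any comparison when the 4 classes were summed and tested with edgeR's quasi-likelihood test, with Benjamini-Hochberg adjustment over the 319 features of that table; 0% of those features passed in each comparison. That table was scaled on its own, and on its scale the groups of tRNA-Lys-TTT, alone of the 5, did not overlap curcumin against old or against young (15% and 10.7% of features), and no groups were apart old against young (5.33%). A lower value was found in 4 of 5 old against young (54.2% of features), 5 of 5 curcumin against old (41.7%) and 5 of 5 curcumin against young (46.4%). At an unadjusted p under 0.05 it held 1.25%, 2.82% and 4.7% of features for old against young, curcumin against old and curcumin against young, and none of the 5. Old against young, the log2 fold changes were -0.32 (SE 0.29) for tRNA-Arg-TCG, -0.30 (SE 0.26) for tRNA-Asp-GTC, -0.16 (SE 0.22) for tRNA-Lys-TTT, -0.11 (SE 0.23) for tRNA-Ser-TGA and 0.05 (SE 0.24) for tRNA-Gly-TCC. Each was close to its standard error or below it. Curcumin against old, they were -0.40 (SE 0.24) for tRNA-Gly-TCC, -0.29 (SE 0.22) for tRNA-Lys-TTT, -0.21 (SE 0.26) for tRNA-Asp-GTC, -0.06 (SE 0.23) for tRNA-Ser-TGA and -0.01 (SE 0.29) for tRNA-Arg-TCG. Curcumin against young, they were -0.51 (SE 0.26) for tRNA-Asp-GTC, -0.45 (SE 0.22) for tRNA-Lys-TTT, -0.35 (SE 0.24) for tRNA-Gly-TCC, -0.32 (SE 0.29) for tRNA-Arg-TCG and -0.17 (SE 0.23) for tRNA-Ser-TGA. Comparisons that share a group share its libraries. With the libraries scaled to their clean-read totals instead, the median of all features moved by 0.24 between curcumin and old, and tRNA-Arg-TCG, tRNA-Ser-TGA and tRNA-Asp-GTC had positive values there (0.28, 0.19 and 0.04), as tRNA-Ser-TGA had against young (0.02). In that scaling tRNA-Lys-TTT was at -0.03 (SE 0.26) curcumin against old and -0.29 (SE 0.26) curcumin against young. The adjusted p of the 5 tRNAs was 0.993 for each old against young, between 0.875 and 0.987 for curcumin against old, and 0.930 for each curcumin against young.

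Each of the 5 tRNAs had its own make-up of fragments. tRNA-Ser-TGA was read almost wholly from its 5′ end, which held 93.5% ± 0.806 (SD, n = 9 libraries) of its reads, the second highest of the 22 after tRNA-Ser-GCT, the other mitochondrial serine tRNA, at 94.4%. Its remainder held 4.70%, its CCA ends 1.21% and its 3′ ends without CCA 0.611%. tRNA-Arg-TCG was read from its 5′ end at 50.3% ± 9.58, the 4th highest of the 22, with a remainder of 27.8% and CCA ends at 21.7%. The other 3 had fewer 5′ ends on average. In tRNA-Lys-TTT the 5′ end share was 2.79% to 6.92% in the libraries numbered 1 and 7.23% to 25.2% in the rest. tRNA-Lys-TTT was read mainly as CCA ends, at 54.1% ± 5.81, with a remainder of 32.5% and 5′ ends at 12.4%. tRNA-Asp-GTC was read mainly as remainder, at 66.5% ± 6.63, with CCA ends at 25.3% and 5′ ends at 7.96%. tRNA-Gly-TCC had a remainder of 62.9% ± 5.69, CCA ends at 29.3%, 5′ ends at 5.01% and the highest share of 3′ ends without CCA among the 5, 2.78%. The largest class was the same in 9 of 9 libraries for tRNA-Ser-TGA, tRNA-Asp-GTC and tRNA-Gly-TCC and in 8 of 9 for tRNA-Lys-TTT and tRNA-Arg-TCG.

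**Figure D2:**
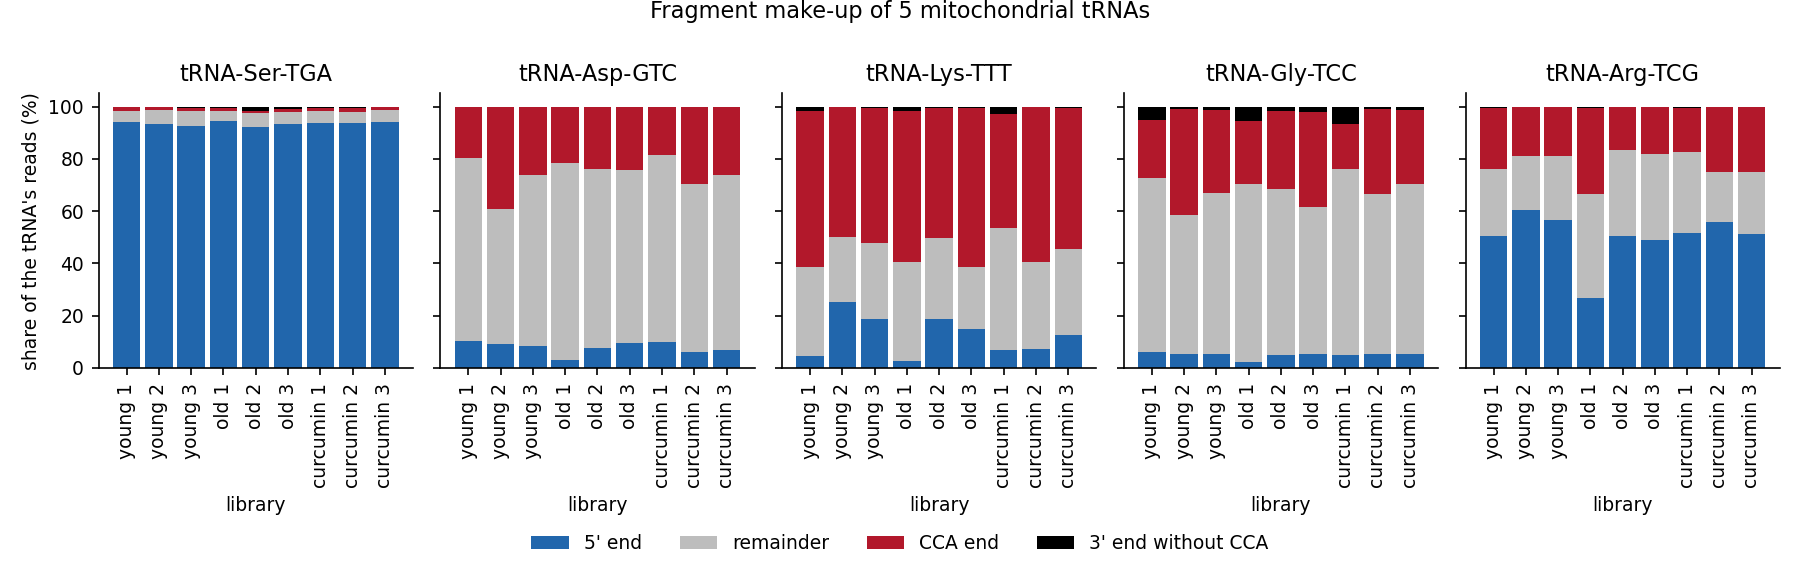
Share of each tRNA's reads (%) in the 4 fragment classes, 1 bar a library and 1 panel a tRNA. The 5′ end (blue) fills over 92% of the bars of tRNA-Ser-TGA, CCA ends (red) lead in tRNA-Lys-TTT, the remainder (grey) leads in tRNA-Asp-GTC and tRNA-Gly-TCC, and old replicate 1 stands out in tRNA-Arg-TCG with a 5′ end share of 26.8%.

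The 5′ ends of tRNA-Lys-TTT were at 46.3, 270.0 and 165 CPM in the young, 23.7, 162 and 127 CPM in the old and 53.1, 55.0 and 73.1 CPM in the curcumin libraries. The lowest library of each group was its replicate 1, all 3 of them lying below the other 6 libraries. The 5′ ends of tRNA-Arg-TCG were at 3592, 3913 and 3315 CPM in young, 886, 2538 and 3201 CPM in old and 2896, 3036 and 2038 CPM in curcumin libraries. The young libraries lay above those of both other groups, but with reads divided by clean-read totals instead they overlapped both. The 5′ ends of tRNA-Gly-TCC were at 230, 228 and 197 CPM in young, 70.2, 193 and 238 CPM in old and 170, 128 and 162 CPM in curcumin libraries. Those of tRNA-Asp-GTC were at 110, 74.5 and 53.8 CPM in young, 19.1, 48.4 and 69.8 CPM in old and 66.2, 34.2 and 33.0 CPM in curcumin libraries. Old replicate 1 was the lowest of the 9 libraries in the 5′ ends of these 4 tRNAs. The 5′ ends of tRNA-Ser-TGA spanned 4488 to 6254 CPM with overlapping groups.

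CCA ends are reads that the deposited files class as ending in CCA; whether each carries an added CCA was not tested, and in tRNA-Gly-TCC 46.3% to 70.3% of them did not match the genome, the rest being genome-matched. Those of tRNA-Lys-TTT were at 613, 533 and 453 CPM in young, 493, 430 and 520 CPM in old and 336, 450 and 319 CPM in curcumin libraries. Those of tRNA-Asp-GTC were at 210, 317 and 166 CPM in young, 126, 148 and 177 CPM in old and 120, 160 and 125 CPM in curcumin libraries. In both, the curcumin libraries lay below the young ones and overlapped the old ones, in tRNA-Lys-TTT by a margin of only 450 against 453 CPM. With reads divided by clean-read totals instead, curcumin and young libraries overlapped in both. Those of tRNA-Gly-TCC were at 837, 1718 and 1162 CPM in young, 772, 1192 and 1590 CPM in old and 582, 807 and 852 CPM in curcumin libraries. The curcumin libraries overlapped the young and old ones only through replicate 1 of the young and old. Young and old libraries overlapped each other without replicate 1 too. The CCA ends of tRNA-Ser-TGA were at 77.8, 88.6 and 72.1 CPM in young, 64.1, 52.1 and 63.1 CPM in old and 54.7, 61.4 and 59.4 CPM in curcumin libraries, and the young libraries were above those of both other groups. Here too the young libraries overlapped both groups with reads divided by clean-read totals. The CCA ends of tRNA-Arg-TCG spanned 828 to 1684 CPM.

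3′ ends without CCA were the rarest class of each of the 5 tRNAs on average. tRNA-Ser-TGA had 11.9, 7.92 and 44.4 CPM in young, 21.4, 97.4 and 47.7 CPM in old and 29.9, 30.3 and 13.6 CPM in curcumin libraries. The groups overlapped. tRNA-Asp-GTC had between 3 and 38 reads of this class a library, so its values rest on counts that small. The 3′ ends of tRNA-Lys-TTT spanned 1.85 to 20.9 CPM and those of tRNA-Arg-TCG 1.44 to 32.0 CPM. The remainders, reads from inside the tRNA or otherwise outside its ends, spanned 174 to 357 CPM in tRNA-Ser-TGA, 322 to 747 in tRNA-Asp-GTC, 194 to 357 in tRNA-Lys-TTT, 1516 to 2517 in tRNA-Gly-TCC and 950 to 2123 in tRNA-Arg-TCG. As a share of its reads, the remainder of tRNA-Arg-TCG was at 25.7%, 20.8% and 24.5% in young, 39.6%, 32.8% and 32.6% in old and 31.1%, 19.0% and 23.9% in curcumin libraries. The old libraries were above those of both other groups; this share was singled out after its values were seen, and was not tested.

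None of the 20 fragment classes passed in any of the 3 comparisons over the 9 libraries, in edgeR's quasi-likelihood test with Benjamini-Hochberg adjustment over 520 features, and 0% of all features passed in each. At an unadjusted p under 0.05 the 20 held none old against young, none curcumin against old and 2 curcumin against young, beside 0.962%, 4.04% and 3.65% of all features. DESeq2 called 1 feature curcumin against young, which was not among the 20. Groups did not overlap in 2 of the 20 classes old against young (4.62% of all features), in none curcumin against old (12.9%) and in 5 curcumin against young (10.4%). These separations hold on the CPM scale. With reads divided by clean-read totals instead, the groups overlapped in each class counted here.

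Old against young, 15 of the 20 classes had a lower value, beside 54.8% of all features, with a median log2 fold change of -0.19 against -0.04 for all features. Both the 5′ ends and the CCA ends were lower in 5 of 5 tRNAs, except that the 5′ end of tRNA-Gly-TCC was at 0.02 without the 3 libraries numbered 1. The 3 classes with the smallest p were the CCA end of tRNA-Asp-GTC (-0.62, SE 0.31, unadjusted p = 0.0715), the 3′ end without CCA of tRNA-Ser-TGA (1.38, SE 0.74, unadjusted p = 0.0947) and the 5′ end of tRNA-Arg-TCG (-0.71, SE 0.40, unadjusted p = 0.110), each with an adjusted p of 0.999 in edgeR's test. Each of the 3 moved with single libraries: the first was -0.30 without young replicate 2 (and -0.98 with genome-matched reads only), the next 0.70 without old replicate 2 and 2.45 without young replicate 3, and the last -0.33 without old replicate 1 and -1.12 without old replicate 3. Scaled to clean-read totals, 16 of the 20 were lower.

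Curcumin against old, 15 of the 20 classes again had a lower value, beside 43.5% of all features, with a median of -0.14 against 0.08. This count follows the scaling: with clean-read totals the median of all features moved by 0.23, and 8 of the 20 were lower. The smallest p were those of the CCA end of tRNA-Gly-TCC (-0.67, SE 0.34, unadjusted p = 0.0832), the CCA end of tRNA-Lys-TTT (-0.39, SE 0.24, unadjusted p = 0.135) and the 3′ end without CCA of tRNA-Ser-TGA (-1.17, SE 0.74, unadjusted p = 0.144), with an adjusted p of 0.917 each in edgeR's test. The value of tRNA-Gly-TCC was -0.37 without old replicate 3, -0.43 with clean-read totals and -0.15 with genome-matched reads only, and that of tRNA-Ser-TGA -0.49 without old replicate 2. The value of tRNA-Lys-TTT was -0.14 with clean-read totals, -0.59 without curcumin replicate 2, and turned to 1.29 when only reads that match the genome were counted; 99.7% of its CCA ends do not.

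Curcumin against young, 15 of the 20 had a lower value, beside 50.6% of all features, with a median of -0.33 against -0.01, and 13 of the 20 were lower with clean-read totals, which moved the median of all features by 0.19. All 5 CCA ends, 5′ ends and remainders were lower, and the 5 3′ ends without CCA were higher by 0.05 to 0.20. With clean-read totals, the 5′ end of tRNA-Ser-TGA (0.03) and the remainder of tRNA-Lys-TTT (0.06) had the opposite sign, and without the 3 libraries numbered 1 so did the CCA end of tRNA-Arg-TCG (0.03) and all 5 3′ ends without CCA (-0.63 to -0.01). The smallest p were those of the CCA ends of tRNA-Asp-GTC (-0.77, SE 0.31, unadjusted p = 0.0307), tRNA-Lys-TTT (-0.53, SE 0.24, unadjusted p = 0.0485) and tRNA-Gly-TCC (-0.73, SE 0.35, unadjusted p = 0.0613), each with an adjusted p of 0.942 in edgeR's test. Without young replicate 2 those of tRNA-Asp-GTC and tRNA-Gly-TCC were -0.39 and -0.33, and that of tRNA-Lys-TTT turned to 0.49 when only genome-matched reads were counted. With clean-read totals those of tRNA-Lys-TTT and tRNA-Gly-TCC were -0.35 and -0.47, and tRNA-Lys-TTT was at -0.35 also without the 3 libraries numbered 1. In replicates 1, 2 and 3 alike, the CCA ends of these 3 tRNAs had lower CPM in the curcumin than in the young library, though no label pairs these libraries. With reads divided by clean-read totals, those of tRNA-Lys-TTT were higher in curcumin replicate 2 than in young replicate 2.

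Other RNAs of the same compartment give the setting. Of the 68 classes of the other 17 mitochondrial tRNAs, none passed, and 35, 33 and 37 were lower old against young, curcumin against old and curcumin against young, with medians of -0.07, 0.01 and -0.06. Their CCA ends alone were lower in 7, 13 and 15 of 17, with medians of 0.07, -0.64 and -0.57, so a lower value of CCA ends with curcumin was not particular to the 5. Mitochondrial 16S rRNA had 31041, 29533 and 25114 CPM on average in young, old and curcumin libraries, with SD of 5717, 4647 and 5071, and 12S rRNA 329, 270 and 265 CPM with SD of 154, 62.5 and 86.0. Neither passed in any comparison. Of the 65 classes of nuclear tRNAs for serine, aspartate, lysine, glycine and arginine, none passed, and 28, 32 and 25 were lower.

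Without the 3 libraries numbered 1, an alternative chosen after the data were seen that leaves 2 libraries a group, some classes passed in the comparisons with the curcumin group. Curcumin against old, the 3′ end without CCA of tRNA-Gly-TCC (-1.45, SE 0.35), the 5′ end of tRNA-Lys-TTT (-1.17, SE 0.30) and the remainder of tRNA-Arg-TCG (-0.92, SE 0.24) were lower, with adjusted p of 0.0066, 0.0100 and 0.0103 in edgeR's test. These are 3 of the 20, where 14.1% of all 519 features passed and 7.51% passed as lower. Curcumin against young, the 5′ end of tRNA-Lys-TTT (-1.76, SE 0.31) and the CCA end of tRNA-Gly-TCC (-0.79, SE 0.26) were lower, with adjusted p of 0.000482 and 0.0436 in edgeR's test, 2 of the 20 beside 12.9% of all features, 5.78% as lower. Old against young, none of the 20 and 0% of all features passed. The 5′ ends of tRNA-Lys-TTT show what the left-out libraries hold: replicate 1 of the curcumin group had 53.1 CPM, above the 23.7 and 46.3 CPM of its old and young counterparts, whereas replicates 2 and 3 of the curcumin group lay below replicates 2 and 3 of both other groups, which had 127 to 270.0 CPM. Of whole tRNAs, tRNA-Gly-TCC passed as lower curcumin against old (-0.72, SE 0.23, adjusted p = 0.0154 in edgeR's test; 18.8% of 320 features passed, 8.12% as lower), and tRNA-Asp-GTC (-0.66), tRNA-Lys-TTT (-0.69) and tRNA-Gly-TCC (-0.68) curcumin against young (23.4% of features passed, 11.6% as lower), with adjusted p of 0.0496, 0.0378 and 0.0209.

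**Figure D3:**
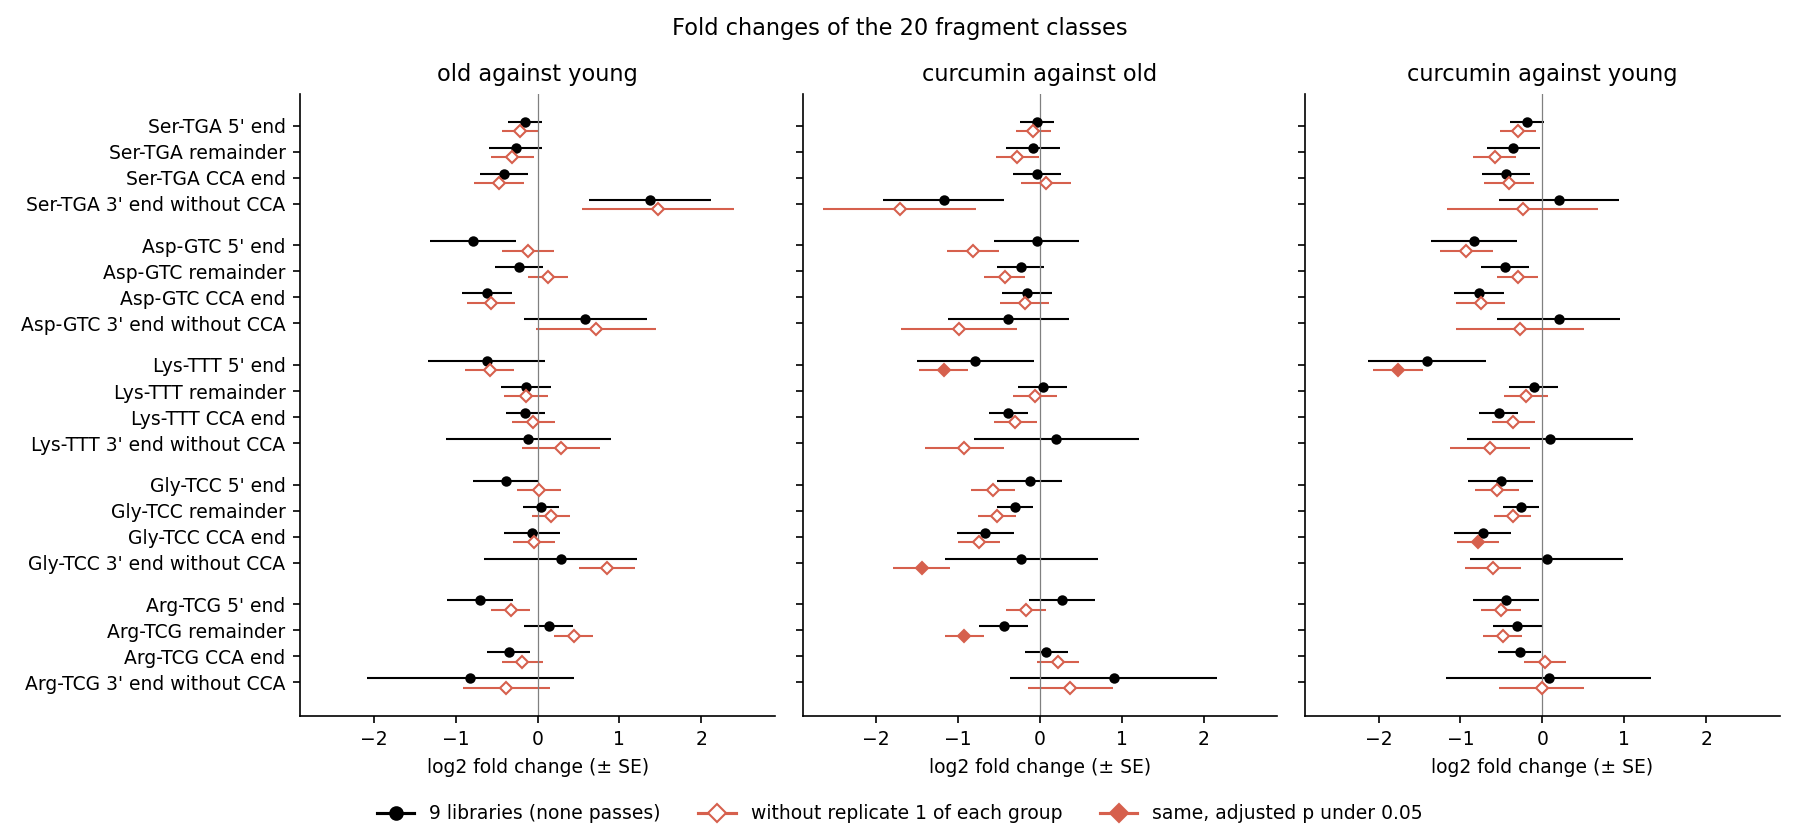
log2 fold change with its SE for each of the 20 fragment classes in the 3 comparisons, over 9 libraries (black circles) and without replicate 1 of each group (red diamonds, filled where the adjusted p was under 0.05). No circle passes; 3 diamonds pass curcumin against old and 2 curcumin against young, each to the left of 0.

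The share of 3′-terminal reads classed as ending in CCA does not depend on the scaling between libraries. Whether each such read carries an added CCA was not tested, and in tRNA-Gly-TCC 46.3% to 70.3% of them did not match the genome. This CCA share averaged 99.2% in tRNA-Asp-GTC, 99.1% in tRNA-Arg-TCG, 98.3% in tRNA-Lys-TTT and 90.2% in tRNA-Gly-TCC over the 9 libraries. tRNA-Ser-TGA, the one of the 5 on the minus strand, had the lowest mean of all 22 mitochondrial tRNAs, 68.9%, where the other 17 ran from 77.1% to 99.2%. Its values were 86.8%, 91.8% and 61.9% in young, 75.0%, 34.9% and 57.0% in old and 64.6%, 67.0% and 81.4% in curcumin libraries. The groups overlapped, and the 95% Wilson interval of a value reached at most 2.84 percentage points to either side, less than the spread between replicates. In tRNA-Gly-TCC the share was 81.6%, 81.0% and 71.9% in replicate 1 of young, old and curcumin, and 94.9% to 98.0% in the other 6 libraries. In tRNA-Lys-TTT it was 94.1% to 97.3% in the libraries numbered 1 against 98.9% to 99.6% in the rest, and in tRNA-Arg-TCG 96.7% to 98.6% against 99.6% to 99.9%. The replicate number thus separated the libraries in these 3 tRNAs where group did not.

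**Figure D4:**
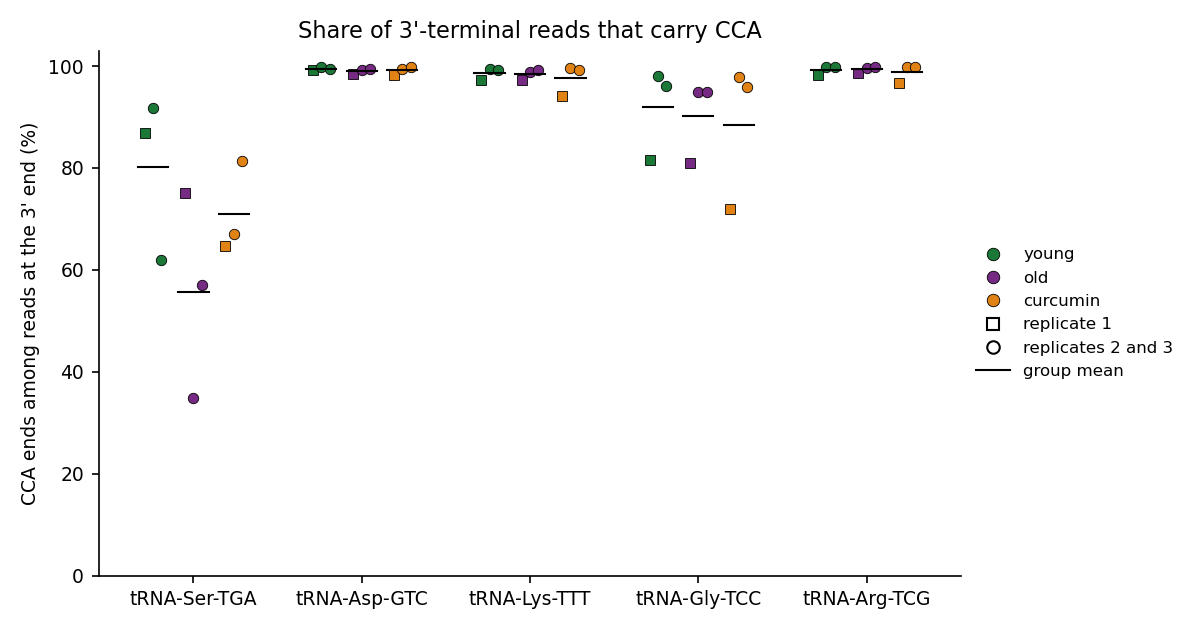
Share of 3′-terminal reads classed as ending in CCA (%) for each tRNA in the 9 libraries, coloured by group, with squares for replicate 1, circles for replicates 2 and 3, and a line at the group mean. The squares of tRNA-Gly-TCC lie at 71.9% to 81.6%, below all of its circles, and tRNA-Ser-TGA spreads from 34.9% to 91.8%.

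Both shares, the CCA share and the 5′ end share, were compared in the 5 tRNAs and 3 comparisons, 30 exact two-sided permutation tests in all, which with 3 libraries against 3 cannot go below p = 0.1. No adjusted p was below 0.923. The smallest p, 0.1 in the exact test, was met by the 5′ end share of tRNA-Arg-TCG curcumin against old, at 52.9% ± 2.67 (SD, n = 3) against 42.2% ± 13.3 (SD, n = 3). The difference within replicate numbers 1, 2 and 3 was 24.7, 5.34 and 2.09 percentage points, so its size rests on replicate 1, while its direction was shared by 3 of 3. No label pairs libraries of the same number, so such agreement, here and below, only describes them. It was met also by the 5′ end share of tRNA-Gly-TCC curcumin against young, at 5.22% ± 0.173 (SD, n = 3) against 5.64% ± 0.383 (SD, n = 3), by the exact test. The CCA share of tRNA-Ser-TGA was 24.5 percentage points lower on average in old than in young libraries, and lower in 3 of 3 replicate numbers, with differences of -11.8, -56.9 and -4.91 points and an exact permutation p of 0.2.

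By level over the 9 libraries, the tRNAs most like the 5 were mostly mitochondrial. Pearson's r of log2 CPM was computed against 67 other tRNA species, as a description of libraries that share depth, scaling and the split by replicate number. tRNA-Gly-TCC was most like mitochondrial tRNA-Leu-TAA (0.85) and tRNA-His-GTG (0.83). tRNA-Asp-GTC was most like mitochondrial tRNA-Phe-GAA (0.83) and tRNA-Ile-GAT (0.70), and tRNA-Lys-TTT most like mitochondrial tRNA-Leu-TAG (0.71) and tRNA-Phe-GAA (0.66). tRNA-Arg-TCG was most like nuclear tRNA-Thr-CGT (0.77) and mitochondrial tRNA-Ala-TGC (0.76). tRNA-Ser-TGA was most like nuclear tRNA-Ala-AGC (0.87) and tRNA-Glu-CTC (0.83).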

How the data were processed

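Small RNA of atrial appendages of young, old and curcumin-treated old mice was profiled, 3 libraries a group; the study's text gives 3 mice a group, but nothing ties a library to a mouse, so p-values measure only the spread between libraries. Per the labels' protocols, RNA was treated with AlkB and T4PNK, a gel fraction of 15 to 45 nucleotides was ligated to adapters of a QIAseq miRNA kit, and inserts were read over 75 cycles. The submitters' processing notes name cutadapt 2.5 and mm10; how reads were annotated, on which strand, and whether molecular identifiers were collapsed is not given in the sources used here. Per the file headers, the deposited values are expected counts of reads for each annotation and end, split by genome match and not normalized; all 1584 values of mitochondrial tRNAs were whole numbers, and other classes were rounded.

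Reads that did and did not match the genome were summed, and the remainder of a tRNA was its whole count less its 3 ends. The main test was edgeR 4.0.16 in R 4.3.3 (quasi-likelihood, robust, TMM, filterByExpr, group only), fitted to the 9 libraries and 520 features together, and a second on 319 features with the classes of each tRNA summed; a feature passed at a Benjamini-Hochberg adjusted p under 0.05. CPM come from the first fit's scaling. DESeq2 1.42.0 and limma 3.58.1 were alternatives. edgeR was tested on simulated data with 200 of 520 features changed. At a log2 change of 2 it recovered 80.3% old against young, 87.7% curcumin against old and 80.0% curcumin against young. At a log2 change of 1 it recovered 13.0%, 29.6% and 22.5%. The simulation gave all features the same dispersion and held no split by replicate number, so these percentages need not hold for the classes studied here. Shares were compared by exact permutation; Wilson intervals treat reads as independent, so they hold counting error alone. Fold changes were named for classes that passed, otherwise for the 3 smallest p a comparison, and for all 5 whole tRNAs. Replicate numbers come from the labels. Deviations of same-numbered libraries correlated at 0.81, 0.62 and 0.27 between old and young and 0.33, 0.19 and 0.28 between curcumin and young. Between curcumin and old they correlated at 0.27, -0.07 and 0.37. Unlike-numbered libraries reached 0.54 between old and young, 0.22 between curcumin and young and 0.49 between curcumin and old. No comparison was paired in the main fit or in the exact permutation tests, and a replicate block was an alternative. The members and lists were chosen with earlier results of these data known.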

Additional observations from a re-analysis of the deposited data

How the results depend on the processing

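No class and no whole tRNA of the 5 passed under RLE size factors, clean-read totals, DESeq2, limma-voom, genome-matched reads, no filter on low counts, a fit of 2 groups at a time, the replicate block, or any single library left out. The replicate block called 0 of the 20 in each comparison and changed no call; in shares it is an exact sign-flip test that cannot go below p = 0.25. What passed did so only without the 3 libraries numbered 1, a choice made with the values in view: 3 of 20 (73 features in all) curcumin against old and 2 (67 in all) against young, and 1 (60 in all) and 3 (75 in all) whole tRNAs. DESeq2 called 1 feature curcumin against young in either table, and tests without the filter called 2, 1 and 4 features of the summed table, none of the 5.

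Signs of small values turned. With clean-read totals, tRNA-Gly-TCC was at -0.050 old against young, tRNA-Arg-TCG, tRNA-Asp-GTC and tRNA-Ser-TGA at 0.28, 0.039 and 0.19 curcumin against old, and tRNA-Ser-TGA at 0.021 against young. Curcumin against old, tRNA-Arg-TCG was also at 0.047 in limma-voom, 0.0024 with only the 2 groups and 0.015 under the replicate block. With genome-matched reads tRNA-Gly-TCC was at -0.10 old against young, and the CCA end of tRNA-Lys-TTT at 1.29 and 0.49 curcumin against old and young. The values of tRNA-Lys-TTT rest on the few of its CCA ends that match the genome. With single libraries left out, tRNA-Gly-TCC ran from -0.082 (without old replicate 3) to 0.12 old against young, and, curcumin against old, tRNA-Arg-TCG from -0.28 (without old replicate 1) to 0.30 (without old replicate 3) and tRNA-Ser-TGA from -0.21 to 0.028 (without old replicate 2).

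Share differences, in percentage points, turned likewise. With genome-matched reads the CCA share of tRNA-Lys-TTT was at 23.7 and 11.3 curcumin against old and young, that of tRNA-Gly-TCC at 2.93 against old, and the 5′ end share of tRNA-Arg-TCG at 1.68 against young. That setting drops the unmatched reads, 99.2% to 99.9% of the CCA ends of tRNA-Lys-TTT in each library. The CCA share of tRNA-Lys-TTT there rests on few CCA reads and is not comparable with the main one. Without the libraries numbered 1, CCA shares curcumin against old were at 0.284 (tRNA-Lys-TTT), 1.91 (tRNA-Gly-TCC) and 0.0050 (tRNA-Arg-TCG), against young at 0.016 (tRNA-Asp-GTC), 0.091 (tRNA-Lys-TTT) and 0.014 (tRNA-Arg-TCG), and the 5′ end share of tRNA-Asp-GTC was at -2.10 against old. Over single libraries left out, the differences that changed sign ranged as follows. Old against young, the CCA share ran from -0.804 to 0.468 in tRNA-Lys-TTT, -6.75 to 3.05 in tRNA-Gly-TCC, -0.376 to 0.499 in tRNA-Arg-TCG. Old against young, the 5′ end share ran from -0.688 to 0.557 in tRNA-Ser-TGA, -9.87 to 0.665 in tRNA-Lys-TTT. Curcumin against old, the CCA share ran from -0.16 to 0.659 in tRNA-Asp-GTC, -1.83 to 0.895 in tRNA-Lys-TTT, -6.41 to 6.56 in tRNA-Gly-TCC, -1.12 to 0.389 in tRNA-Arg-TCG. Curcumin against old, the 5′ end share ran from -0.0456 to 1.2 in tRNA-Ser-TGA, -0.979 to 2.2 in tRNA-Asp-GTC. Curcumin against young, the CCA share ran from -0.706 to 0.113 in tRNA-Asp-GTC, -1.97 to 0.752 in tRNA-Lys-TTT, -8.51 to 4.96 in tRNA-Gly-TCC, -1.01 to 0.504 in tRNA-Arg-TCG.
The causes of these turns were not tested. Depth limits the 3′ ends without CCA, down to 3 reads in tRNA-Asp-GTC.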

Other observations

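How far the reads of a class match the mouse genome differed among the 5 tRNAs. Reads classed as CCA ends were mostly unmatched. On average over the 9 libraries, 99.7% of those of tRNA-Lys-TTT and 97.4% of those of tRNA-Arg-TCG did not match. Of those of tRNA-Asp-GTC 96.5% did not match, and of those of tRNA-Ser-TGA 93.4%. tRNA-Gly-TCC differed from these 4, with 61.0% unmatched and a range of 46.3% to 70.3%, below the lowest library of each of the other 4. None of the 5′ end reads of the 5 tRNAs was unmatched in any library. In the remainder, the unmatched share averaged 32.7% in tRNA-Lys-TTT, 22.7% in tRNA-Arg-TCG, 15.6% in tRNA-Ser-TGA, 14.4% in tRNA-Gly-TCC and 4.00% in tRNA-Asp-GTC. For tRNA-Lys-TTT it was 46.6%, 15.5% and 15.8% in young, 48.2%, 25.5% and 23.2% in old and 48.4%, 31.8% and 39.3% in curcumin libraries. Replicates 2 and 3 of the curcumin group were above those of the old group, which were above those of the young, whereas the libraries numbered 1 lay at 46.6% to 48.4% in all 3 groups. For tRNA-Arg-TCG it was 34.0%, 8.94% and 10.3% in young, 35.7%, 12.7% and 6.23% in old and 39.3%, 29.6% and 27.7% in curcumin libraries. These shares were singled out after their values were seen and were not tested.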
